A study of Homo sapiens with 4 samples.

Results

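The enzymes that make deoxynucleotides, the building blocks of DNA, were examined in Jurkat, an immortalized cell line derived from a human T cell leukemia. The set was chosen by name and holds 8 genes: TYMS, RRM1, RRM2, TK1, DTYMK, DUT, DCK and SAMHD1. Of these, 7 had a row each among the 16328 rows of the deposited table, and 1 gene, SAMHD1, matched no row and is not analysed here. The series has 4 libraries of polyadenylated RNA: 1 labelled Control, described in the design as a control shRNA, and 3 labelled SLEAR shRNA with the numbers 1 to 3. SLEAR is the transcript that the hairpins target, and the series title ties it to systemic lupus erythematosus and to apoptosis. All libraries carry the same growth and treatment labels, with hairpins delivered by a pGreenPuro lentiviral vector. SLEAR itself matched no row and is not analysed here, so its knockdown was not checked. The labels give no time after transduction, no selection and no statement on clones or separate cultures, nor do they say if the numbers mark different hairpins. Where 3 values are given for SLEAR shRNA, they stand in the order of these numbers. The spread between the SLEAR shRNA libraries may therefore be technical, and p-values measure that spread only.

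A dividing cell makes deoxynucleotides mainly in S phase. Ribonucleotide reductase, built from the large subunit RRM1 and the small subunit RRM2, turns ribonucleotides into deoxynucleotides, and thymidylate synthase (TYMS) adds the methyl group that makes dTMP from dUMP. DUT supplies dUMP by splitting dUTP, TK1 and DCK recover deoxynucleosides by phosphorylating them, DTYMK carries dTMP to dTDP, and SAMHD1 breaks deoxynucleotides down again. Much of this set is known to be switched on at the start of S phase by E2F factors, and several of the promoters hold CCAAT boxes, which NF-Y binds. T lymphocytes and T cell leukemias are known to depend on this supply, and antimetabolite drugs act on it.

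The stretches of promoter that hold these motifs are shown because they are what the members share, or do not share, at their starts. They come from RefSeq windows on the build GRCh38.p14, each 300 bases long and lying mostly before an annotated start. That build differs from the one named for the expression table. All 8 genes had at least 1 window. The search used TTTCCCGC and TTTGGCGC, forms of the E2F recognition sequence, and CCAAT, on both strands. Capitals mark the match, and each run is read 5′ to 3′ on the strand of the gene.
TYMS, chr18:657603-657632, plus strand: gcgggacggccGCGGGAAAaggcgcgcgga
DUT, chr15:48332144-48332173, plus strand: gggcggggctgGCGGGAAAtttcggttttg
DUT, chr15:48332159-48332188, plus strand: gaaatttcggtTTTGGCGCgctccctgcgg
RRM2, chr2:10122604-10122633, plus strand: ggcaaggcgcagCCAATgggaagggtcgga
RRM2, chr2:10122634-10122663, plus strand: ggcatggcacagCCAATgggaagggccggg
RRM2, chr2:10122661-10122690, plus strand: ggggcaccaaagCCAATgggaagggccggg
RRM1, chr11:4094645-4094674, plus strand: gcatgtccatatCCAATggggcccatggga
TK1, chr17:78187112-78187141, minus strand: ggccgggcgctgATTGGccccatggcggcg
TK1, chr17:78187081-78187110, minus strand: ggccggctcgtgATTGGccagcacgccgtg
DTYMK, chr2:241686890-241686919, minus strand: ccccggccccggCCAATcccttcgaatttg
DTYMK, chr2:241686822-241686851, minus strand: tgttgacgccggCCAATgggagctccggaa

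The E2F-type octamers were found in the windows of 3 of the 8 members, TYMS, DUT and DCK, against 2.7% of all 27305 genes with a window. The match in TYMS began 39 bases before the start, on the other strand, and those in DUT began 42 and 27 bases before one of its starts. CCAAT was found in 5 of 8 members, RRM1, RRM2, TK1, DTYMK and SAMHD1, against 39.7% of all genes. RRM2 had 3 copies in nearly the same surroundings, 123, 93 and 66 bases before one of its starts (another match, not shown, lay in the window of its other start). The matches in DCK and SAMHD1, which have no tested row, are not shown. No window of these 8 genes held both kinds of motif in the forms searched, and other forms of the E2F sequence were not searched. A match describes the letters only, and binding was not measured.

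SLEAR shRNA-3 stood apart from the other libraries over the whole table. It had 6941 rows at 0, against 2314 to 2984 in the other 3 libraries, and the shallowest depth. Depth, estimated from what 1 read is worth in the low values, ran from 4814158 reads in SLEAR shRNA-3 to 8384900 in Control. At these depths the values of all 7 members came out as whole reads within 0.05 reads. Counting intervals below are exact Poisson or binomial intervals at 95%, and they cover counting error only, since no molecular identifiers are mentioned. All 10 T lineage markers looked for had a row, 12 rows together, which summed to 3853 RPM in Control and 4197 to 4352 RPM with SLEAR shRNA (RPM, reads scaled to library size). CD3D, CD247, LCK and CD3E carried most of this sum. CD3G was at 0.238 RPM in Control and 0 elsewhere, and the 3 PTPRC rows reached at most 6.23 RPM, with 2 of them at 0 in SLEAR shRNA-3. Of 7 myeloid markers 5 had a row, of 7 erythroid 3, of 6 epithelial 2 and of 6 fibroblast 1, and each of these lists summed to at most 3.19 RPM in any library and to 0 in SLEAR shRNA-3. Of 6 B cell markers 3 had a row, 1 of them at 0 throughout, and they summed to 12 RPM in Control and 19.7 to 23.1 RPM with SLEAR shRNA. The part of these in the results was not tested. In bulk RNA, fewer cells of a kind and less RNA per cell cannot be told apart.

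Thymidylate synthase showed the steadiest difference of the set. TYMS was at 1192 RPM in Control and at 934, 859 and 751 RPM with SLEAR shRNA. Control was highest, and the SLEAR shRNA libraries did not reach it. Relative to Control these levels were 0.783 (95% counting interval 0.759 to 0.808), 0.721 (0.698 to 0.743) and 0.630 (0.607 to 0.655), so each library lay below Control by more than counting error. The mean with SLEAR shRNA was 848 ± 91.6 RPM (SD, n = 3), and the gap to Control was larger than that SD. On the log2(RPM + 1) scale the difference was -0.50 ± 0.22 (SE), with a 95% interval of -1.07 to 0.08, and it did not pass by limma-trend (adjusted p = 0.993, unadjusted p = 0.076). The size of the gap varied by library: the levels in SLEAR shRNA-1 and SLEAR shRNA-3 had counting intervals that do not overlap.

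DTYMK, the kinase of the step after TYMS, was lower as well. It was at 162 RPM in Control and at 130, 131 and 75.6 RPM with SLEAR shRNA. Again Control was highest, with no overlap, and SLEAR shRNA-3 lay well below the other libraries. SLEAR shRNA-1 and -2 were nearly equal, at 0.801 (0.735 to 0.871) and 0.805 (0.741 to 0.874) of Control, while SLEAR shRNA-3 was at 0.466 (0.414 to 0.523). The log2 difference was -0.57 ± 0.39 (SE), with an interval of -1.62 to 0.48, and did not pass (limma-trend adjusted p = 0.993). The mean with SLEAR shRNA was 112 ± 31.6 RPM (SD, n = 3), and 130 RPM without SLEAR shRNA-3 (n = 2).

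DUT, the dUTPase that feeds TYMS, did not show this order. It was at 15.3 RPM in Control and at 14.2, 16.5 and 8.31 RPM with SLEAR shRNA. Control lay inside the range of the SLEAR shRNA libraries, and only SLEAR shRNA-3, with 40 reads, was lower than Control beyond counting error, at 0.544 of it (0.372 to 0.782). The log2 difference of -0.27 ± 0.58 (SE) did not pass (limma-trend adjusted p = 0.993), and it was 0.0025 without SLEAR shRNA-3. RefSeq lists 8 pseudogenes named for DUT, 3 for RRM2 and 2 for TYMS. These have no row of their own in the table used, and how reads shared with them were assigned is not stated in the labels, so these 3 genes are uncertain to that extent.

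**Figure D1:**
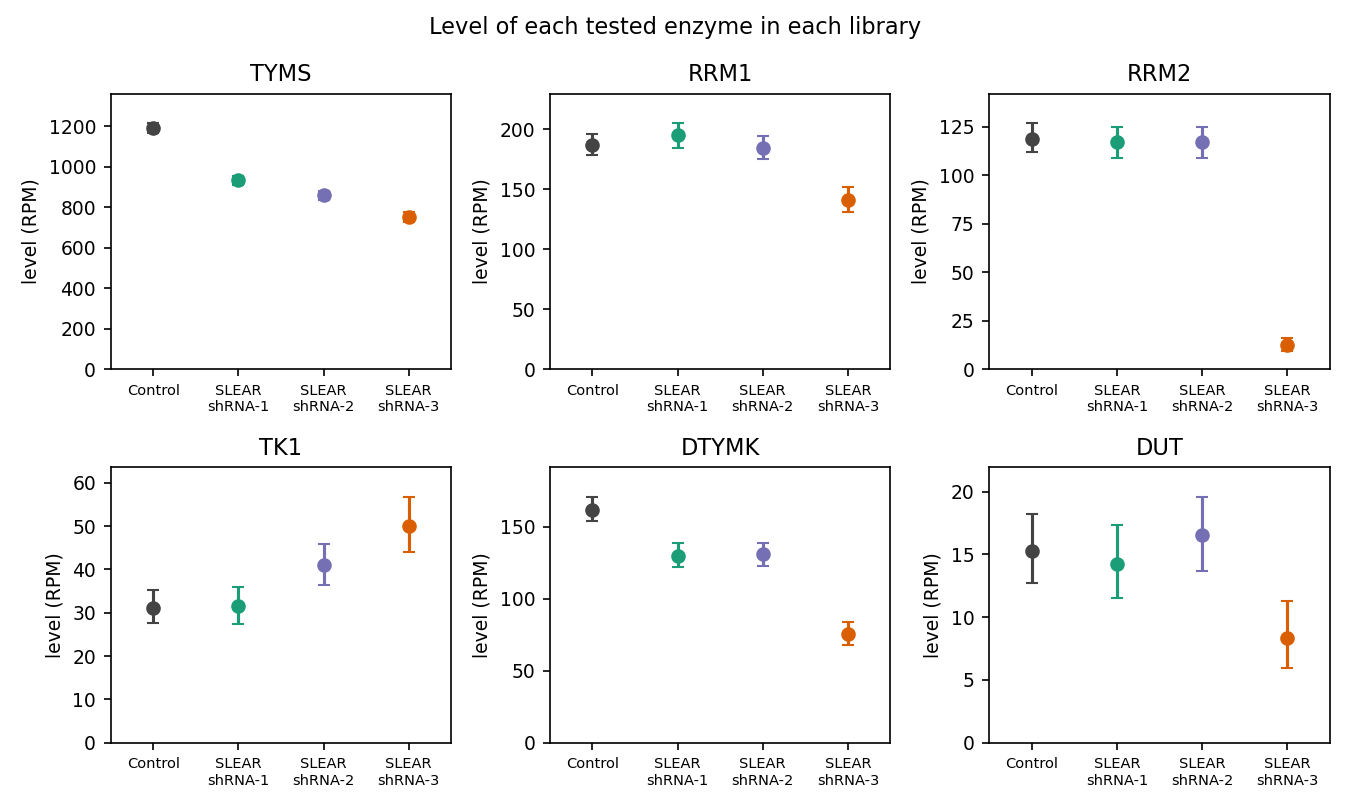
Level in RPM (y axis, from 0, a separate scale for each gene) of the 6 tested enzymes in the 4 libraries (x axis). Points are library values and bars are exact 95% Poisson intervals of the reads. TYMS and DTYMK are highest in Control, TK1 is lowest there, and RRM2 is level in 3 libraries and at 12.5 RPM in SLEAR shRNA-3.

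The salvage kinase TK1 went the other way. It was at 31.2 RPM in Control and at 31.5, 40.9 and 50.1 RPM with SLEAR shRNA. All 3 values lay above Control, but SLEAR shRNA-1 did so by 0.8%, within counting error. SLEAR shRNA-2 was at 1.31 (1.11 to 1.55) and SLEAR shRNA-3 at 1.60 (1.34 to 1.92) of Control. The log2 difference of 0.35 ± 0.36 (SE) did not pass (limma-trend adjusted p = 0.993). The RNA of these genes of dTMP salvage and synthesis can be set side by side as a ratio, which does not measure enzyme activity. TK1 reads were 2.62% of TYMS reads in Control (95% interval 2.31 to 2.96) and 3.37%, 4.77% and 6.66% with SLEAR shRNA. The interval of SLEAR shRNA-1 begins at 2.94 and touches that of Control, whereas those of SLEAR shRNA-2 and -3 begin at 4.24 and 5.82. DTYMK, by contrast, kept close to TYMS in 3 libraries, at 13.6% of it in Control and 13.9% and 15.2% in the first pair of hairpin libraries, and was at 10.1% in SLEAR shRNA-3.

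DCK, the kinase that starts the salvage of deoxycytidine and activates cytarabine, was at the limit of detection. It had 1 read, or 0.133 RPM, in SLEAR shRNA-2 and 0 reads elsewhere. Taken as 3 reads, a limit lower than the exact Poisson bound, a count of 0 allows a level of up to 0.358 RPM in Control, 0.426 RPM in SLEAR shRNA-1 and 0.623 RPM in SLEAR shRNA-3. No fold is given, and DCK did not enter the test, which left out rows below 1 RPM in every library. The method reads the ends of transcripts next to the poly(A) tail, so a low value is a statement on the row and the end it covers.

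Ribonucleotide reductase gave the largest departure of the set, in its small subunit and in 1 library. RRM2 was at 119 RPM in Control and at 117, 117 and 12.5 RPM with SLEAR shRNA, from 997, 823, 878 and 60 reads. The first 3 of these lay within counting error of each other, at ratios of 0.982 (0.894 to 1.08) and 0.981 (0.895 to 1.08) to Control. SLEAR shRNA-3 was 9.54-fold below Control, at 0.105 of it (0.0794 to 0.136). RRM2 thus counts as lower in all 3 libraries, but by only 1.8% and 1.9% in SLEAR shRNA-1 and -2. The fitted log2 difference of -1.07 ± 1.42 (SE), with an interval of -4.85 to 2.71, did not pass (limma-trend adjusted p = 0.993). Without SLEAR shRNA-3 it was -0.03 (limma-trend adjusted p = 0.907).

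The partner subunit did not share this departure. RRM1 was at 187 RPM in Control and at 195, 184 and 141 RPM with SLEAR shRNA. Control lay inside the range of the SLEAR shRNA libraries, and SLEAR shRNA-3 was lowest, at 0.755 of Control (0.689 to 0.827). The log2 difference was -0.12 ± 0.26 (SE), which did not pass (limma-trend adjusted p = 0.993) and turned to 0.02 without SLEAR shRNA-3. RRM2 reads were 63.6% of RRM1 reads in Control, 60.0% and 63.3% in SLEAR shRNA-1 and -2, and 8.82% (6.66 to 11.5) in SLEAR shRNA-3. RRM2B, the small subunit that serves resting and damaged cells, was at 0.238, 0.142, 0.133 and 0 RPM, below 3 reads in every library. It was named after its values were seen, and no fold is given.

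**Figure D2:**
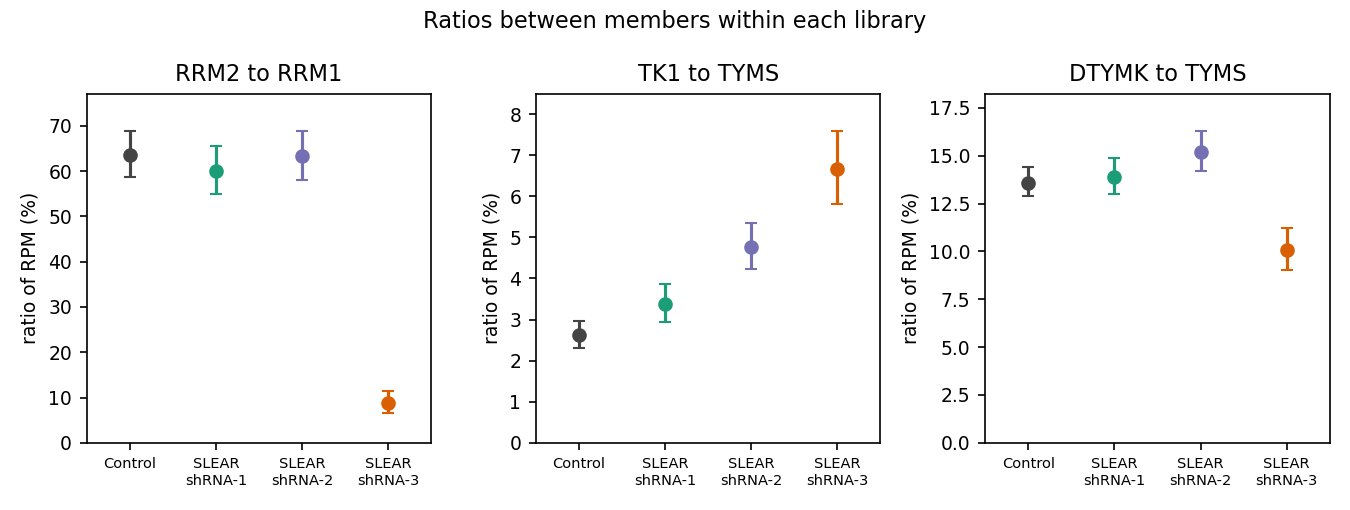
Ratio of RPM between 2 members within a library, in percent (y axis, from 0), for the 4 libraries (x axis). Bars are exact binomial 95% intervals. RRM2 to RRM1 is at 60.0% to 63.6% in 3 libraries and 8.82% in SLEAR shRNA-3, and TK1 to TYMS runs from 2.62% in Control to 6.66%.

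Since SLEAR shRNA-3 stood apart in many genes, the members were set beside rows of like level. For each member, rows within 0.5 log2 units of its mean level in SLEAR shRNA-1 and -2 were taken, and the distance of SLEAR shRNA-3 from that mean was compared. For RRM2 the distance was -3.13 on the log2 scale, and 1 of 787 rows at its level lay as low (0.127%). Their median was -0.13, with an SD of 0.59. The row that lay lower was PHF6, a chromatin-associated gene often mutated in T cell leukemia, at 12.3 RPM in SLEAR shRNA-3 against 119 to 185 RPM elsewhere. PHF6 was named after its values were seen. For the other members SLEAR shRNA-3 was not unusual by this measure: 12.6% of rows lay as low as DTYMK, 27.3% as low as DUT, 30.2% as low as RRM1 and 33.1% as low as TYMS, and 24.3% lay as high as TK1. That RRM2 differed in this library was thus measured in 1 library only and has no replicate.

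**Figure D3:**
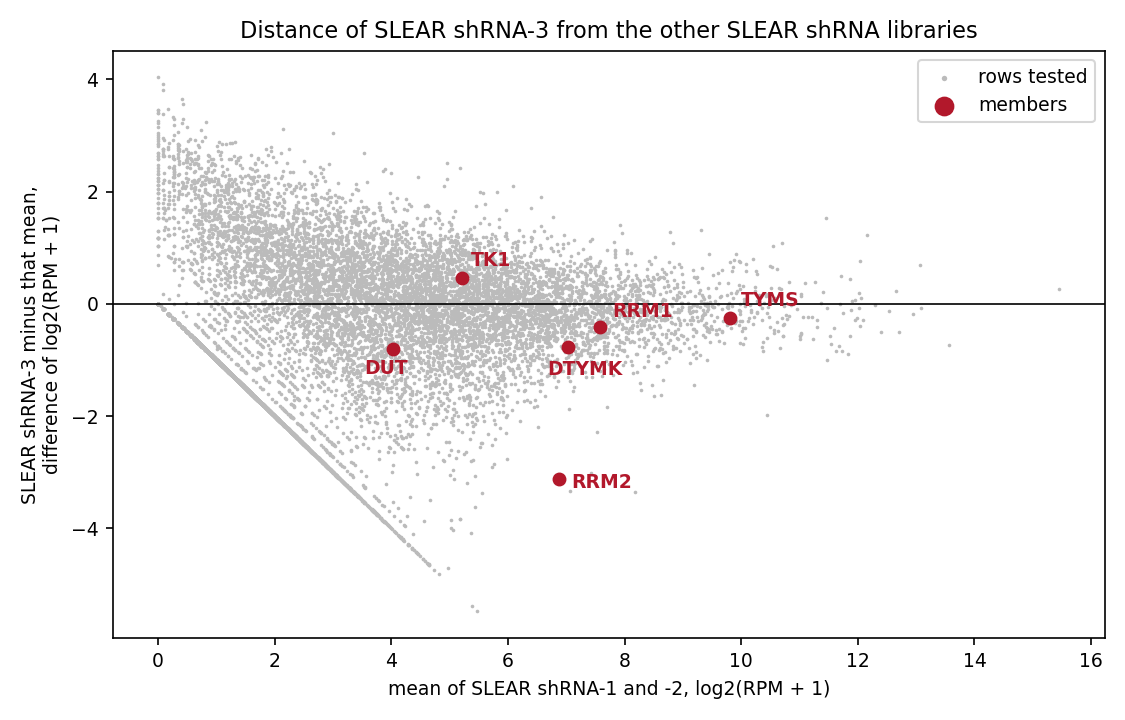
Each grey point is a tested row: the x axis is the mean level in SLEAR shRNA-1 and -2 as log2(RPM + 1), and the y axis is how far SLEAR shRNA-3 lies from it on the log2 scale. Members are in red. RRM2 lies at -3.13, below nearly all rows of its level, and the other 5 lie within the cloud.

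The same band of rows gives the spread for the other 2 hairpin libraries. The mean of SLEAR shRNA-1 and -2 was 0.41 below Control on the log2 scale for TYMS, where rows at its level had an SD of 0.27, and 3.15% of 127 rows lay as low. For DTYMK it was 0.31 below, with an SD of 0.33, and 12.7% of 739 rows lay as low. RRM1, RRM2 and DUT lay within 0.03 of Control, and TK1 was 0.21 above it with an SD of 0.43. TYMS was therefore the member that lay farthest out among its peers when SLEAR shRNA-3 was left aside. RRM2 was the one that lay farthest out in that library. The rows were picked by the same mean that enters these differences, which can shift the shares. Being farthest out of the members was not tested.

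**Figure D4:**
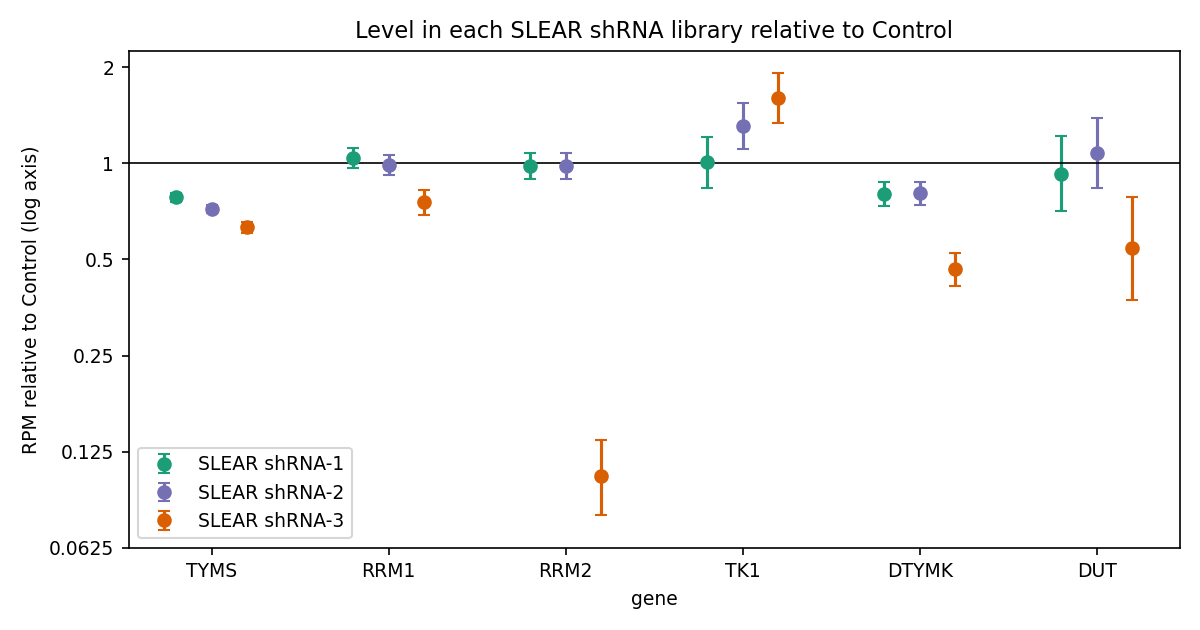
RPM in each SLEAR shRNA library divided by that in Control (y axis, log scale, 1 means equal) for the 6 tested enzymes (x axis), with 95% counting intervals. All 3 libraries lie below 1 for TYMS and DTYMK, and RRM2 is at 0.982 and 0.981 in SLEAR shRNA-1 and -2 and at 0.105 in SLEAR shRNA-3.

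As a set, 6 of the 8 members passed the filter on low values. By limma-trend on all libraries, 0 of 6 passed at an adjusted p under 0.05, and the background was 0.0% higher and 0.0% lower of 12350 rows. At an unadjusted p under 0.05 there were also 0 of 6 members, against 92 higher and 239 lower rows over the table, and limma-voom, with 69 higher and 222 lower, also called 0 after adjustment. TYMS, DTYMK and RRM2 were lower than Control in all 3 libraries, which is 3 of 6, where 28.6% of all tested rows were. TK1 was higher in all 3, which is 1 of 6, where 17.8% of rows were. Among the better expressed rows (mean log2 of 4 or more, as for all of these but DUT) the shares were 25.6% lower and 25.0% higher. With 6 rows, these shares are not a result about the set. The 6 members had median log2 differences of -0.06, -0.02 and -0.74 with SLEAR shRNA, and all tested rows had -0.02, -0.04 and -0.23. The better expressed rows had 0.02, -0.01 and -0.03. With 1 Control against 3 libraries, an exact permutation test cannot go below 0.25 one-sided.

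Leaving out SLEAR shRNA-3 alone did not bring TYMS past the threshold (log2 difference -0.41, limma-trend adjusted p = 0.368). With the test also limited to the 4851 better expressed rows, TYMS passed: its log2 difference was -0.41 ± 0.12 (SE), 1.33-fold lower, with a limma-trend adjusted p of 0.0101. This fit was chosen after the data were seen, and 7.26% of its rows were called lower and 7.11% higher. Its spread was pooled completely over rows, so disagreement between the 2 libraries within a row did not count. The other members in it did not pass. DTYMK was at -0.31 ± 0.17 (SE), with an adjusted p of 0.19, TK1 at 0.20 ± 0.23 (SE), and RRM1 at 0.02 ± 0.16 (SE). DUT, with a mean log2 of 3.82, was outside this fit.

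**Figure D5:**
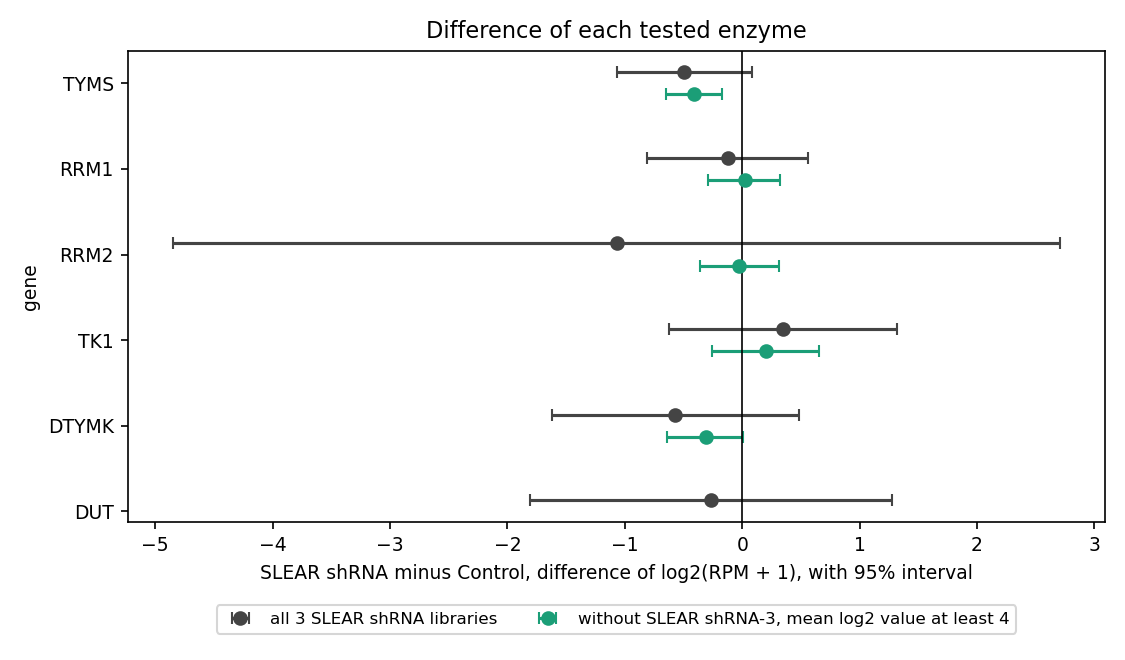
Difference of log2(RPM + 1) between SLEAR shRNA and Control (x axis) for each tested enzyme (y axis), with the 95% interval of limma-trend, on all libraries (grey) and without SLEAR shRNA-3 among better expressed rows (green, not fitted for DUT). The intervals on all libraries cross 0 for all 6 genes, and in the second fit that of TYMS runs from -0.65 to -0.17.

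Genes that lie over or beside the members were checked, since reads of overlapping genes cannot be told apart without strand, and the labels do not state it. By RefSeq, TYMS is overlapped at its start by TYMSOS and toward its end by ENOSF1, both on the other strand. ENOSF1 was at 7.75 RPM in Control and at 6.95, 6.78 and 6.23 RPM. The part of reads from either strand in the TYMS row was not tested. TYMSOS was at 43.4 RPM and at 74.9, 47.4 and 29.9 RPM, with Control inside the SLEAR shRNA range. ATG4B, the neighbour of DTYMK, was at 97.8 RPM and at 108, 94.5 and 62.1 RPM, so it too was lowest in SLEAR shRNA-3, but was not below Control in SLEAR shRNA-1.

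The folate cycle, which hands TYMS its methyl group, had 13 tested rows, and 0 passed. Of these 1 lay above Control in every SLEAR shRNA library and 4 below, against 17.8% and 28.6% of all tested rows. MTHFD1L, the mitochondrial formate producer, had 2 tested rows, the higher of which was at 93.5 RPM in Control and at 74.9, 70.0 and 63.8 RPM. Its pattern was like that of TYMS, with Control highest, but its difference of -0.42 ± 0.22 (SE) did not pass (limma-trend adjusted p = 0.993). The other MTHFD1L row, at 1.31 RPM in Control and 1.42, 2.13 and 1.04 RPM, had Control inside the range. MTHFD1 was at 154 RPM and at 158, 132 and 73.5 RPM. The serine hydroxymethyltransferases SHMT1, at 38.3 RPM and at 45.1, 43.3 and 26.6 RPM, and SHMT2, at 49.1 RPM and at 66.1, 40.5 and 50.3 RPM, had Control inside the range.

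Among other genes of deoxynucleotide supply and clean-up, 25 rows were tested and 0 passed. Of these 8 lay above Control in every SLEAR shRNA library and 4 below, where 17.8% and 28.6% of all tested rows did. The median log2 difference was 0.01, against -0.11 over all tested rows and -0.02 over the better expressed rows. ADA, which deaminates deoxyadenosine and whose loss causes immunodeficiency, was at 3873 RPM in Control and at 4202, 4117 and 4782 RPM. NME2, a nucleoside diphosphate kinase, was at 687 RPM and at 877, 903 and 894 RPM, with a log2 difference of 0.37 ± 0.18 (SE), and shares its row with the readthrough NME1-NME2. Its sister NME1 was at 1479 RPM and at 1789, 1757 and 1462 RPM. ITPA, which removes deaminated nucleotides, was at 36.0 RPM and at 57.6, 57.7 and 76.6 RPM, a difference of 0.80 ± 0.29 (SE). DCTPP1, which clears dCTP and its analogs, was at 821 RPM and at 819, 807 and 583 RPM. DGUOK, the mitochondrial deoxyguanosine kinase, named after its values were seen, was at 24.6 RPM and at 28.8, 38.0 and 25.8 RPM.

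In the fit to better expressed rows without SLEAR shRNA-3, 4 of 18 rows of this list were higher and 1 lower at an adjusted p under 0.05 by limma-trend, where 7.11% and 7.26% of all its rows were. Those higher were NME2 (log2 difference 0.37 ± 0.12 SE), ITPA (0.66 ± 0.21 SE), NT5C (0.47 ± 0.17 SE), a cytosolic nucleotidase, and NME4 (0.39 ± 0.14 SE), a mitochondrial diphosphate kinase. The one lower was NT5M, a mitochondrial nucleotidase, at -0.98 ± 0.33 (SE). With the level limit set on the other libraries, NT5C was no longer called (limma-trend adjusted p = 0.051 against 0.0496) and NT5M was not among the rows tested. NT5M was at 24.0 RPM in Control and at 9.79, 14.0 and 27.8 RPM, NME4 at 344 RPM and at 463, 442 and 260 RPM, and NT5C at 87.3 RPM and at 117, 125 and 87.0 RPM. SLEAR shRNA-3 thus lay on the other side of Control for NT5M and NME4 and just below it for NT5C. In the purine list 2 of 12 rows and in the pyrimidine list 0 of 5 were called higher in that fit, with 0 lower in both.

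Thioredoxins and glutaredoxins, families that include the electron donors of ribonucleotide reductase, were listed with their own reductases and the inhibitor TXNIP. Not every gene of this list serves that enzyme. This list had 8 tested rows, 3 above and 2 below Control throughout, and 0 passed. Of all tested rows, 17.8% lay above and 28.6% below throughout. The TXN row was low, at 1.31 RPM in Control and at 0.851, 0.266 and 0 RPM, which speaks only for the transcript end it covers. TXN2, the mitochondrial thioredoxin, was at 168 RPM in Control and at 272, 246 and 182 RPM. Its log2 difference was 0.45 ± 0.29 (SE) on all libraries and 0.62 ± 0.15 (SE) in the fit to better expressed rows without SLEAR shRNA-3, where it passed (limma-trend adjusted p = 0.00139). GLRX was at 60.3 RPM and at 54.1, 62.2 and 17.2 RPM, and GLRX2 at 76.9 RPM and at 88.5, 93.0 and 49.4 RPM. In both, Control lay inside the range and SLEAR shRNA-3 was lowest, as for RRM1. TXNIP, the inhibitor of thioredoxin, was at 18.4 RPM and at 8.37, 9.57 and 2.91 RPM, a difference of -1.41 ± 0.83 (SE) that did not pass (limma-trend adjusted p = 0.993).

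Known regulators of the members had 23 tested rows, 5 above and 8 below Control throughout, and 0 passed. Over all tested rows the shares were 17.8% above and 28.6% below. In the fit to better expressed rows without SLEAR shRNA-3, 1 of 12 rows was called higher and 3 lower (limma-trend). Of all rows in that fit, 7.11% were called higher and 7.26% lower. The regulators called were E2F2 (0.77 ± 0.21 SE) against CDK2 (-1.03 ± 0.23 SE), RB1 (-0.69 ± 0.21 SE) and SKP2 (-0.59 ± 0.22 SE). With the level limit set on the other libraries, SKP2 was no longer called (limma-trend adjusted p = 0.0524 against 0.0484). E2F2, an activator of S phase genes, was at 33.5 RPM in Control and at 63.3, 52.6 and 35.1 RPM. Other E2F factors in the list, at lower levels, did not all follow it. E2F1 was at 6.2 RPM in Control and at 4.4, 6.25 and 0.208 RPM. E2F3 was at 2.98 RPM in Control and at 3.97, 3.32 and 3.32 RPM. E2F1 and E2F3 were named after their values were seen. RB1, which restrains E2F factors, was at 71.1 RPM and at 39.9, 48.1 and 17.0 RPM, below Control in all 3 libraries. CDK2, the kinase of S phase entry, was at 55.7 RPM and at 25.7, 27.8 and 79.1 RPM, and SKP2 at 53.6 RPM and at 29.9, 41.4 and 54.5 RPM. For CDK2 and SKP2 the SLEAR shRNA-3 library lay above Control. Other S phase genes had 28 tested rows, 6 above and 9 below Control throughout, against 17.8% and 28.6% of all tested rows, and 0 passed. In the fit to better expressed rows without SLEAR shRNA-3, 1 of 23 was called higher and 1 lower, against 7.11% and 7.26% of all its rows. Their median log2 difference was -0.21 on all libraries, against -0.38 for the 6 members and -0.11 for all tested rows. The better expressed rows had -0.02. By library the S phase medians were -0.04, -0.01 and -0.22. All tested rows had -0.02, -0.04 and -0.23, close to the S phase list. Rows of mean log2 4 or more, as were 23 of the 28 S phase rows, had 0.02, -0.01 and -0.03. The S phase median thus lay below that of such rows in SLEAR shRNA-3, which was not tested. The members had a median of -0.74 in SLEAR shRNA-3.

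The 5 rows nearest to the members' median pattern, by Euclidean distance over the 3 log2 differences from Control, were EPHB6, CECR5, NSMCE4A, ZAK and PCMT1, at distances of 0.04 to 0.08. By this selection, each lay close to Control in SLEAR shRNA-1 and -2 and lower in SLEAR shRNA-3. The median joins members that differ: in SLEAR shRNA-3, TK1 was at 0.66 and RRM2 at -3.15 from Control. NSMCE4A, for example, was at 504 RPM in Control and at 487, 475 and 310 RPM. The measure rests on 3 differences that share 1 Control.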

How the data were processed

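The deposited values are RPM, reads scaled to library size by the authors, in 1 table of 4 columns, 1 per library. FastQC, Bowtie2, SAMtools and the build hg19 are named in the submitters' processing notes. Read assignment and filters are not given in the sources used here. Listed rows held 85.3% to 89.5% of each library's total. Of 16328 rows, 8 had no symbol, and 177 rows identical to another in every library (mean 1 RPM or more) were merged, leaving 16151. SLEAR shRNA was compared with Control by limma-trend (limma 3.58.1, R 4.3.3) on log2(RPM + 1), with Benjamini-Hochberg adjustment over the 12350 rows that reached 1 RPM in any library. This scale understates changes of low rows. The 1 Control is assumed to vary like the SLEAR shRNA libraries. Of values above 0, 96.4% to 96.7% were whole reads within 0.05, and some lay below 1 read, so the main fit used no count model. The counting intervals and limma-voom used estimated reads rounded to whole numbers. On simulated data the fit recovered the changes put in where the spread was small and none of them at the spread of these libraries, so a lack of calls here does not show a lack of change. Members and lists were chosen with earlier results of these data known. Named genes were the members, the 4 rows of highest level in each list, list genes past the threshold in either fit, overlapping or neighbouring genes, and the 5 rows most alike. Genes the rule takes from the purine, pyrimidine and S phase lists, the highest regulators and the lesser neighbours are not listed by value, for length, and 1 gene is not reported here. Alternatives were pseudocounts of 0.1 and 5, other filters and scaling, limma-voom, summed rows, each SLEAR shRNA library left out and, added after the data were seen, array weights, scaling to listed rows and 2 fits without SLEAR shRNA-3.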

Additional observations from a re-analysis of the deposited data

How the results depend on the processing

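Of 88 values for the 6 tested members under 15 alternatives, 80 kept their direction and their side of the threshold. Without SLEAR shRNA-3 and among rows of mean log2 4 or more, TYMS passed at -0.41, with that mean taken over all libraries (345 rows higher, 352 lower over the table) or over the other libraries (347 and 346). Over all its alternatives TYMS ran from -0.57 to -0.41, with adjusted p from 0.00996 to 1.0. With no filter on low values, 1 row was higher and 376 lower, none of them among the 6 tested members. RRM1 ran from -0.21 to 0.02 and DUT from -0.45 to 0.0025 when 1 SLEAR shRNA library was left out. RRM1 was also 0.02 in both fits with the added filter, and DUT 0.0025 in the second and 0.01 with array weights. Among 30 other named genes, 16 of 441 values changed direction. Another 17, in 10 genes, came to pass the threshold, all without SLEAR shRNA-3 among better expressed rows. All of these 10 but NME2 and TXN2 were named because they passed there, so that count follows from the naming rule. When 1 SLEAR shRNA library was left out, SHMT1 ran from -0.17 to 0.20, SHMT2 from -0.12 to 0.23, GLRX2 from -0.21 to 0.24, ATG4B from -0.35 to 0.05, NME4 from -0.02 to 0.39 and TYMSOS from -0.20 to 0.45. SHMT1 was 0.20, GLRX2 0.24 and ATG4B 0.05 in the fits with the added filter. With array weights SHMT1 was 0.17, SHMT2 -0.02 and GLRX2 0.22, and with limma-voom SHMT1 was 0.0021. For those that turned without SLEAR shRNA-3, the fits hold fewer samples. The cause was not tested otherwise. No paired analysis was possible because Control has 1 library without a number. Depth limits DCK, with 1 read in all.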

Other observations

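UCK2, the kinase that salvages uridine and cytidine, was also low in SLEAR shRNA-3 against the other SLEAR shRNA libraries, though less so than RRM2. It was at 141 RPM in Control and at 142, 119 and 34.7 RPM with SLEAR shRNA 1 to 3. Of 788 rows at the level of RRM2, the 4 lowest in SLEAR shRNA-3 were PHF6, RRM2, UBAP1 and UCK2, at -3.34, -3.13, -2.20 and -1.88 on the log2 scale from the mean of the other SLEAR shRNA libraries. UBAP1 was at 87.7 RPM in Control and at 89.9, 90.5 and 18.9 RPM. UBAP1 was named after its values were seen, UCK2 by its level, and the departures have no replicate.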
